A study of Mus musculus with 12 samples.

Results

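Ptprk, Ptprm, Ptprt and Ptpru are the 4 mouse genes of the R2B class of receptor-type protein tyrosine phosphatases. They were taken by gene name from a table of 52636 genes, and each name matched 1 row. The libraries came from hepatocytes of fatty mouse livers. A Percoll gradient and differential centrifugation split the hepatocytes of each liver by how much lipid they held, which gave 1 low-fat and 1 high-fat fraction per mouse. There were 4 groups of 3 libraries: wild-type (WT) low-fat, WT high-fat, PTPRK knockout (KO) low-fat and KO high-fat. Each of the 6 mice, 3 per genotype, gave 1 library of each fraction, so low and high fat are fractions of the same liver and not diets. Mice are called here by the replicate number of their libraries, 1 to 3 in each genotype, which is not the animal's own number in the labels. The labels do not give the design of the knockout allele, the cells in which it acts, or the age, sex, strain or diet of the mice. The comparisons asked whether the relatives of Ptprk change when it is lost, and in which fraction each of them is expressed.

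R2B receptors span the membrane once. Outside the cell they carry a MAM domain, an immunoglobulin-like domain and fibronectin type III repeats, through which molecules of the same receptor on neighbouring cells can bind each other, and inside the cell they carry paired phosphatase domains. They are known as regulators of cell contacts, with cadherins, catenins and other junction proteins among their partners or substrates. PTPRM is well known from endothelium, PTPRT from the nervous system, and PTPRU is described as a pseudophosphatase.

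Levels are reads scaled to 20 M (megareads) per library, written below as reads per 20 M. Estimated depth ranged from 15.1 to 25 M reads, so that 3 reads, taken as the floor of detection, correspond to between 2.4 and 3.98 reads per 20 M. This floor covers counting error only. Summed over 8 hepatocyte markers, among them Alb and Hnf4a, the level lay between 670019 and 835835 in the 12 libraries, and all 8 were tested. Markers of other liver cells were also present in each group: the sum of 8 sinusoidal endothelial markers ranged from 889 to 2208 in low-fat and from 3650 to 11389 in high-fat libraries. The corresponding ranges were 145 to 695 and 2141 to 3632 for 8 stellate cell markers, and 450 to 1277 and 1976 to 10671 for 9 Kupffer cell markers. For 6 biliary markers, of which 2 were tested, they were 375 to 509 and 272 to 365. For 6 lymphocyte and neutrophil markers, of which 1 was tested, they were 6 to 102 and 6 to 66. No gene of these lists was at 0 throughout a group. In such bulk samples, fewer cells of a type and less RNA per cell cannot be told apart.

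Ptprk was by far the most abundant R2B transcript in each library. To compare genes, each level was divided by the summed length of the gene's annotated exons, 13.3 kb for Ptprk, 8.83 kb for Ptprm, 7.11 kb for Ptpru and 12.6 kb for Ptprt. Summed exons can be longer than a single transcript (13.3 kb against 4754 bases for an annotated Ptprk transcript). Shares and ranks per kb depend on this choice of length. Ptprk then made up 95.6% ± 1.07 of the family in WT low-fat libraries and 89.1% ± 6.32 in WT high-fat libraries (mean ± SD, n = 3). In KO libraries it still made up 93.3% ± 0.643 in low-fat and 85.7% ± 6.43 in high-fat libraries (n = 3 each). The summed level of the 4 genes was 218.8 ± 7.85 reads per 20 M per kb in WT low-fat and 102.2 ± 11.3 in KO low-fat libraries (SD, n = 3). In the high-fat fraction the sum was 202.7 ± 6.31 in WT and 105.5 ± 9.76 in KO libraries, and in neither fraction did the genotypes overlap. The family total was thus lower in every KO library than in any WT library. As Ptprk made up most of the sum in each library, its own lower level sets this outcome. The total therefore does not show whether the relatives changed.

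**Figure D1:**
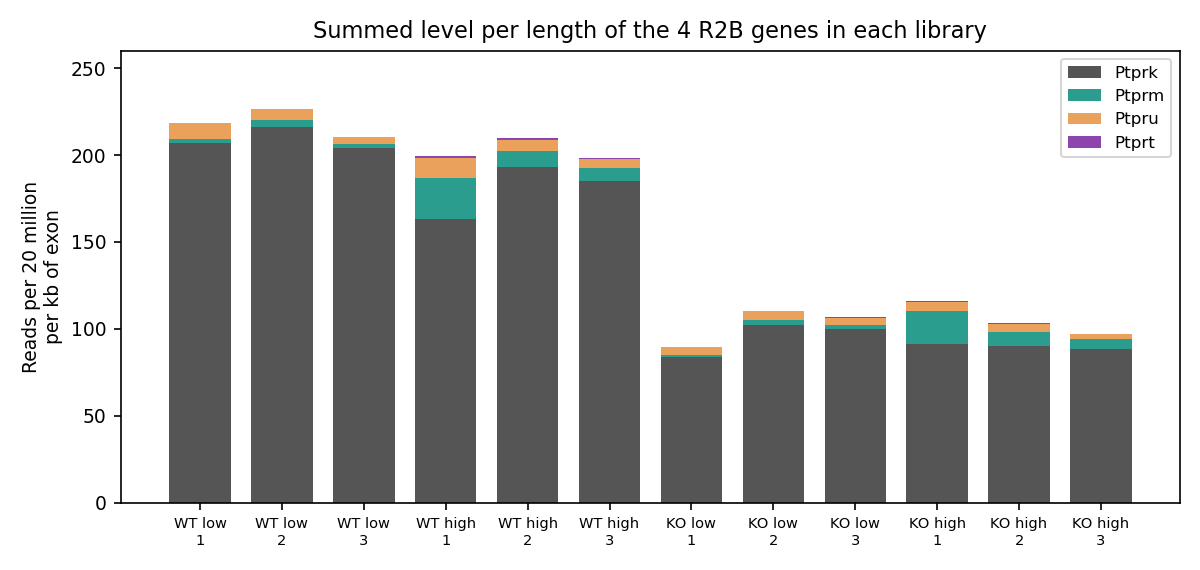
Stacked bars give the level of each R2B gene per kb of annotated exon (y axis, reads per 20 M per kb) in each of the 12 libraries (x axis, group and replicate). Ptprk fills most of every bar, the KO bars end between 89.39 and 116.2 and the WT bars between 198.7 and 226.8, and Ptprm is widest in the high-fat libraries of both mice numbered 1.

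The order of the 2 relatives next to Ptprk differed between the fractions. In WT low-fat libraries Ptpru reached 4.36 to 9.56 reads per 20 M per kb and Ptprm 2.04 to 4.3. These ranges nearly touched. Before division by length they overlapped, at 31 to 68 for Ptpru and 18 to 38 for Ptprm. In KO low-fat libraries Ptpru reached 4.22 to 4.78 per kb, against 1.36 to 3.29 for Ptprm. In WT high-fat libraries the ranges overlapped, at 7.59 to 24 for Ptprm and 5.34 to 11.5 for Ptpru. In KO high-fat libraries Ptprm, at 5.66 to 19, lay above Ptpru, at 2.81 to 5.06. Ptprt was last in every library, at no more than 0.793.

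The 4 genes are related in sequence yet distinct enough for short reads to be told apart. The stretches below surround the codon of the catalytic cysteine in the membrane-proximal phosphatase domain, a conserved part of the family. They are shown to let a reader see how far the members differ in such a part. This bears on whether reads of 1 member could be counted for another. Each has 63 bases of coding sequence from GENCODE M21 transcripts, written 5′ to 3′, with the cysteine codon in capitals. They span bases 3310 to 3372 of the coding sequence of Ptprk, 3355 to 3417 of Ptprm, 3262 to 3324 of Ptprt and 3223 to 3285 of Ptpru, counted from the start codon.
Ptprk: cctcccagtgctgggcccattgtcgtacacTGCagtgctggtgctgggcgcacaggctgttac
Ptprm: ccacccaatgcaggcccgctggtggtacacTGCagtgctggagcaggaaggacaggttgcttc
Ptprt: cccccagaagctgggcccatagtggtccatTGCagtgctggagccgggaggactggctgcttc
Ptpru: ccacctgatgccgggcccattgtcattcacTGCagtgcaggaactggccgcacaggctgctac

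Within this stretch, Ptprk shared 47 of 63 bases with Ptprm, 47 with Ptprt and 51 with Ptpru. Whole coding sequences were aligned end to end, and identity was taken over aligned bases, leaving out 199 to 373 gap positions per pair. It ranged from 65.4% (Ptprm and Ptpru) to 70.1% (Ptprm and Ptprt) over the 6 pairs, and Ptprk was 67.5% identical to Ptprm. Of all distinct 50-base words in the annotated transcripts of a member, 0 occurred in another member. Ptprm shared 408 of its 8989 words (4.54%) with AC139750.1, a gene annotated within it on the same strand, whose identifier matched no row and which was not analysed here. Ptprk shared 12 of 13511 words with other genes, and Ptprt and Ptpru shared 0. On the opposite strand Gm22370 overlaps Ptprk and was listed at no more than 4 reads per 20 M, and Ptprtos overlaps Ptprt and was listed at 0. Ptprm overlaps 10 annotated genes, 4 on its own and 6 on the opposite strand. Of these, 4 matched a row by identifier and were listed at no more than 7 in any library, Gm9984 being the highest, and the other 6 were not analysed here. Strandedness of the counting is not given in the sources used here.

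Ptprk is the gene targeted in the KO mice, so its level checks the labels. In low-fat libraries it stood at 2758, 2883 and 2724 reads per 20 M in WT mice 1 to 3, and at 1117, 1364 and 1333 in KO mice 1 to 3. In high-fat libraries it stood at 2174, 2578 and 2469 in WT and at 1217, 1204 and 1179 in KO mice. All 6 KO libraries lay below all 6 WT libraries, and the KO mean was 45.6% of the WT mean for low-fat and 49.9% for high-fat libraries. Reads of Ptprk were thus lower by about a factor of 2 and were not lost. The table gives 1 value per gene, so it does not show which exons the remaining reads come from, nor whether protein is made.

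On the log2 scale Ptprk differed between KO and WT by -1.13 in low-fat libraries (limma adjusted p = 0.00131) and by -0.99 in high-fat libraries (limma adjusted p = 0.00506), each with an SE of 0.0936. Fold changes here are on the log2(value + 2) scale after rescaling between libraries. With the low-fat and high-fat values of a mouse averaged first, the difference was -1.06 with an SE of 0.0828 over 3 WT and 3 KO mice (limma adjusted p = 0.0445, and 0.109 with the replicate number as a block, which ended that call). Ptprk was the 1 gene of 16563 called in each of these comparisons, a background of 0.00604% each (0% over mouse means with the block). Two-sided exact permutation tests gave p = 0.1 in all 3, the smallest value that 3 against 3 allows. The high-fat call was lost in a fit of the 6 high-fat libraries alone (adjusted p = 0.404) and on leaving out WT high-fat replicate 3 or KO high-fat replicate 2 (adjusted p = 0.0524 and 0.0531), at nearly the same fold change. The call over mouse means was lost without any 1 mouse, WT or KO replicate 1, 2 or 3 (limma adjusted p from 0.144 to 0.481), where the fold change ranged from -1.11 to -1.01.

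**Figure D2:**
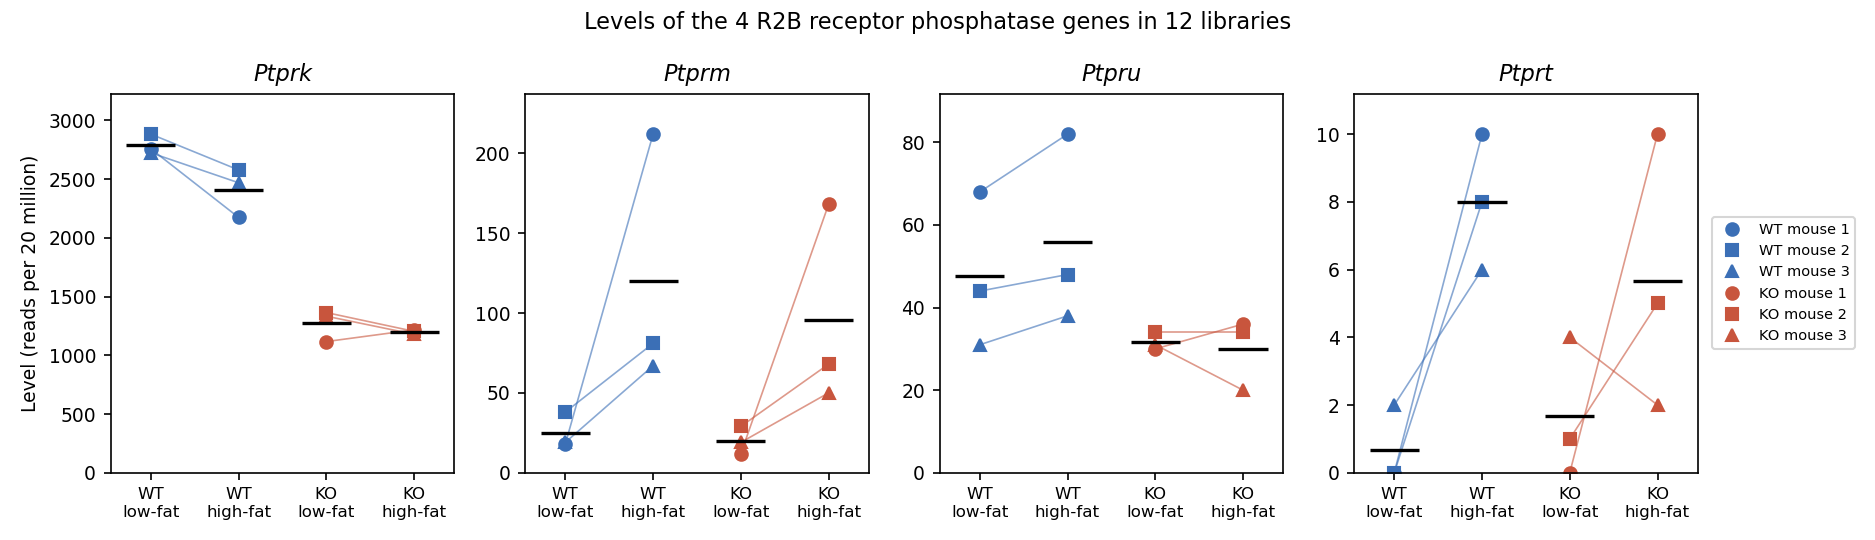
Each panel shows 1 gene, with the level in reads per 20 M on the y axis and the 4 groups on the x axis. Symbols mark mice, lines join the 2 libraries of a mouse, and black bars are group means. KO points of Ptprk all lie below the WT points, and Ptprm rises from low-fat to high-fat in all 6 mice.

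None of the relatives was called as changed in KO libraries. Of the 3 relatives, Ptprm and Ptpru passed the filter on low values, and limma called 0 of these in low-fat libraries, in high-fat libraries and in the averaged values. At an unadjusted p under 0.05 stood 1 (Ptpru) in high-fat libraries, against 2.02% of all genes, 0 in low-fat libraries, against 1.73%, and 0 in the averaged values, against 2.19%. With the replicate number as a block, Ptpru stood under 0.05 in high-fat libraries and in the averaged values, against 3.93% and 3.98% of all genes, and 0 did in low-fat libraries, against 3.24%. Neither relative was higher in KO mice on average.

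Ptpru is the member described as lacking phosphatase activity. In low-fat libraries it stood at 68, 44 and 31 reads per 20 M in WT mice and at 30, 34 and 31 in KO mice, and the groups overlapped. In high-fat libraries it stood at 82, 48 and 38 in WT and at 36, 34 and 20 in KO mice, without overlap, as was the case for 4.51% of all genes. The lowest WT and the highest KO value there were 2 units apart, less than the 3 reads taken as the floor, and WT mouse 1 was high in both fractions. The log2 fold change was -0.49 (95% interval -1.20 to 0.22) in low-fat and -0.82 (95% interval -1.53 to -0.11, unadjusted p = 0.0271) in high-fat libraries, with a limma adjusted p of 1 in both. Averaged per mouse it was -0.66 (95% interval -1.32 to 0.01, limma adjusted p = 0.999). The exact permutation tests, two-sided, gave p = 0.2, 0.1 and 0.1 in that order, and a halving of Ptpru lies inside all 3 intervals. Without WT replicate 1 the fold change was -0.204 in low-fat libraries, -0.536 in high-fat libraries and -0.37 over mouse means, and leaving out any other library or mouse gave values down to -0.716, -1.05 and -0.882.

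Ptprm was not called between genotypes. Its low-fat levels were 18, 38 and 19 in WT and 12, 29 and 19 reads per 20 M in KO mice. Its high-fat levels were 212, 81 and 67 in WT and 168, 68 and 50 in KO mice. In both fractions the ranges of the genotypes overlapped, and the spread within a group was wider than the gap between the means. After rescaling, KO lay below the WT mouse of the same number in 3 of 3 pairs in each fraction. The log2 differences were -0.483, -0.334 and -0.0495 in low-fat and -0.371, -0.264 and -0.336 in high-fat libraries. Ptpru was also lower in 3 of 3 pairs in each fraction, and the share over all genes was not counted. The same number marks different animals that the labels do not pair, so these pairs only describe the Ptprm values. The log2 fold change was -0.29 (95% interval -1.38 to 0.80) in low-fat, -0.32 (95% interval -1.42 to 0.77) in high-fat libraries and -0.31 (95% interval -0.88 to 0.27) over mouse means, with limma adjusted p-values of 1, 1 and 0.999. With the replicate number as a block the SE over mouse means was 0.161 in place of 0.247, and the 95% interval was -0.71 to 0.10 (limma adjusted p = 0.997). The high-fat value became 0.159 without WT high-fat replicate 1. The sum of the 8 endothelial markers was also lower in KO libraries, with a median of 1733 against 2160 in low-fat and 4335 against 5742 in high-fat libraries. All 8 of these markers had negative fold changes in both fractions. Their median was -0.72 and -0.43, against -0.00 and -0.01 over all genes, and limma called 0 of them. At an unadjusted p under 0.05 stood 3 in low-fat and 0 in high-fat libraries, against 1.73% and 2.02% of all genes. Over mouse means their median was -0.57 and 6 of 8 stood under 0.05, against 2.19% of all genes (7, against 3.98%, with the block), again with 0 called. All 9 Kupffer cell markers were negative in low-fat libraries, with a median of -0.80, and 7 of 9 were in high-fat libraries, with a median of -0.11. Over mouse means all 9 were negative, with a median of -0.46, and 0 stood under 0.05 (5, against 3.98% of all genes, with the block). Of 8 stellate cell markers, 7 were negative in low-fat libraries (median -0.51) and 5 in high-fat libraries (median -0.02). Over mouse means 7 of these 8 were negative, with a median of -0.27, and 0 stood under 0.05, with or without the block. The part of these cell types in the Ptprm values was not tested.

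Ptprt was close to the limit of detection. In low-fat libraries it was listed at 0, 0 and 2 reads per 20 M in WT and at 0, 1 and 4 in KO mice, which is at or near the floor of 3 reads. In high-fat libraries it was listed at 10, 8 and 6 in WT and at 10, 5 and 2 in KO mice. It reached 10 in 2 libraries and so failed the filter, which asks for 10 in 3 libraries. Without the filter, KO minus WT on the log2 scale came to 0.38 (95% interval -0.68 to 1.44) in low-fat and -0.48 (95% interval -1.54 to 0.58) in high-fat libraries, with a limma adjusted p of 1 in both. A difference between genotypes was not detectable at this depth.

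**Figure D3:**
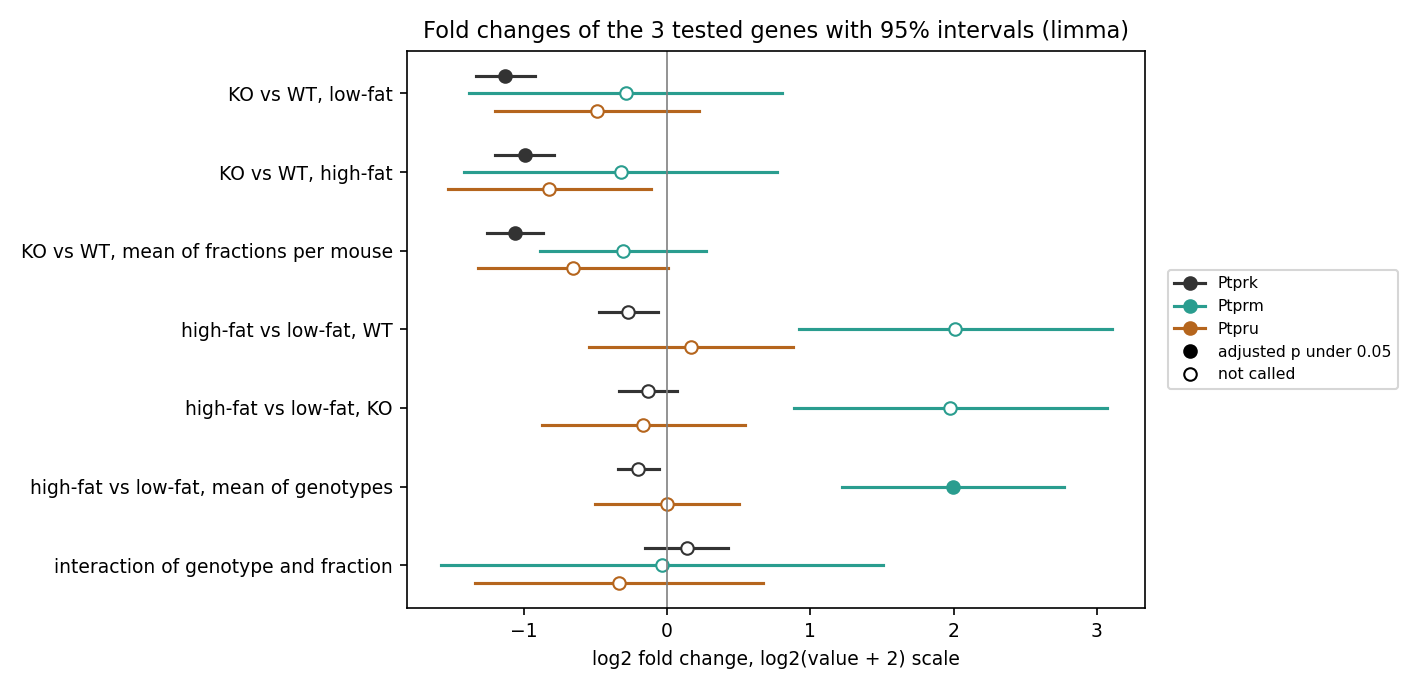
Points give the log2 fold change (x axis, log2(value + 2) scale) of Ptprk, Ptprm and Ptpru in each of the 7 comparisons (y axis), with 95% intervals as lines and filled points where the limma adjusted p was under 0.05. Filled points are Ptprk in the 3 KO against WT comparisons and Ptprm in the high-fat against low-fat comparison over both genotypes.

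Between the fractions, Ptprm had the largest fold change of the 3 members that were tested. Its high-fat level was above its low-fat level in 6 of 6 mice, which held for 10.8% of all genes, by 11.8-fold, 2.13-fold and 3.53-fold in WT mice 1 to 3 and by 14-fold, 2.34-fold and 2.63-fold in KO mice 1 to 3. In each genotype all 3 high-fat libraries lay above all 3 low-fat libraries; groups did not overlap for 13.9% of genes in WT and 11.2% in KO. Over both genotypes the rise was 1.99 on the log2 scale with an SE of 0.352 (limma adjusted p = 0.00812, and 0.0153 with each mouse as a block). This comparison called 5.77% of all genes, and 5.05% as higher in the high-fat fraction; 2 of the 3 tested members, Ptprm and Ptprk, lay at an unadjusted p under 0.05, against 18.3% of all genes. A two-sided exact permutation test within mice gave p = 0.03125, the smallest value that 6 mice allow. Within a genotype the fold changes were 2.01 in WT and 1.98 in KO (SE 0.498 each), with limma adjusted p-values of 0.125 and 0.099, so neither was called alone. limma called 0 of the 3 tested members in either genotype, against 0% of all genes in WT and 0.839% in KO. At an unadjusted p under 0.05 stood Ptprm and Ptprk in WT, against 11.2% of all genes, and Ptprm in KO, against 8.96%.

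The rise of Ptprm was largest in replicate 1 of both genotypes, which also had the largest rise of Kupffer cell and endothelial markers. The summed endothelial markers were 5.27, 2.67 and 2.05 times as high in the high-fat library of WT mice 1 to 3, and 8.29, 2.38 and 2.11 times in KO mice 1 to 3. For Kupffer cell markers the ratios were 11, 1.73 and 3.42 in WT and 20.7, 3.02 and 3.08 in KO mice. For stellate cell markers they were 6.31, 7.87 and 3.52 in WT and 19.7, 5.46 and 3.86 in KO mice. Hepatocyte markers stayed between 0.923 and 1.08 times. The 6 biliary markers were lower in the high-fat library of each mouse, at 0.697 to 0.814 times the low-fat sum. The 6 lymphocyte and neutrophil markers went either way, from 0.127 to 4.12 times, at sums of 6 to 102. Over both genotypes limma called 8 of 8 endothelial, 8 of 8 stellate and 7 of 9 Kupffer cell markers as higher in the high-fat fraction, against 5.05% of all genes, with median log2 fold changes of 1.72, 2.60 and 2.25 against -0.02 over all genes. Without both mice numbered 1, a choice made after the values were seen, the log2 fold change of Ptprm was 1.3 and it was still called.

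The level of Ptprm was then set against each marker sum. Per 1000 units of the endothelial marker sum, Ptprm stood at 11.5 ± 5.33 in WT low-fat and 15.8 ± 2.42 in WT high-fat libraries (SD, n = 3 each). In KO libraries it stood at 13.5 ± 2.45 and 17.4 ± 4.78 (SD, n = 3 each), and the ranges overlapped in both genotypes. By mouse this ratio went from 8.33, 17.7 and 8.61 to 18.6, 14.1 and 14.8 in WT mice 1 to 3. In KO mice 1 to 3 it went from 13.5, 15.9 and 11 to 22.8, 15.7 and 13.7. Per 1000 units of the Kupffer cell marker sum it stood at 26.2 ± 6.55 and 29.2 ± 8.5 in WT and at 32.2 ± 7.11 and 24.9 ± 6.56 in KO libraries (SD, n = 3 each). Per 1000 units of the stellate cell marker sum it stood at 66.2 ± 64 in WT low-fat and 41.2 ± 15.8 in WT high-fat libraries. In KO libraries it stood at 55.6 ± 26.5 and 34.2 ± 21.5 (SD, n = 3 each), and the ranges overlapped in both genotypes. By mouse it went from 31.2, 140 and 27.3 to 58.4, 37.8 and 27.4 in WT mice 1 to 3. The lower WT high-fat mean thus rests on mouse 2. In KO mice 1 to 3 it went from 82.8, 54.1 and 29.9 to 58.9, 23.2 and 20.4. Per 1000 units of the hepatocyte marker sum the fractions did not overlap. The range was 0.0165 to 0.0559 in the 6 low-fat and 0.0608 to 0.316 in the 6 high-fat libraries. The hepatocyte sum hardly differed between the fractions of a mouse (0.923 to 1.08 times), so this ratio only restates the level of Ptprm. The part of these cell types in the level of Ptprm was not tested.

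**Figure D4:**
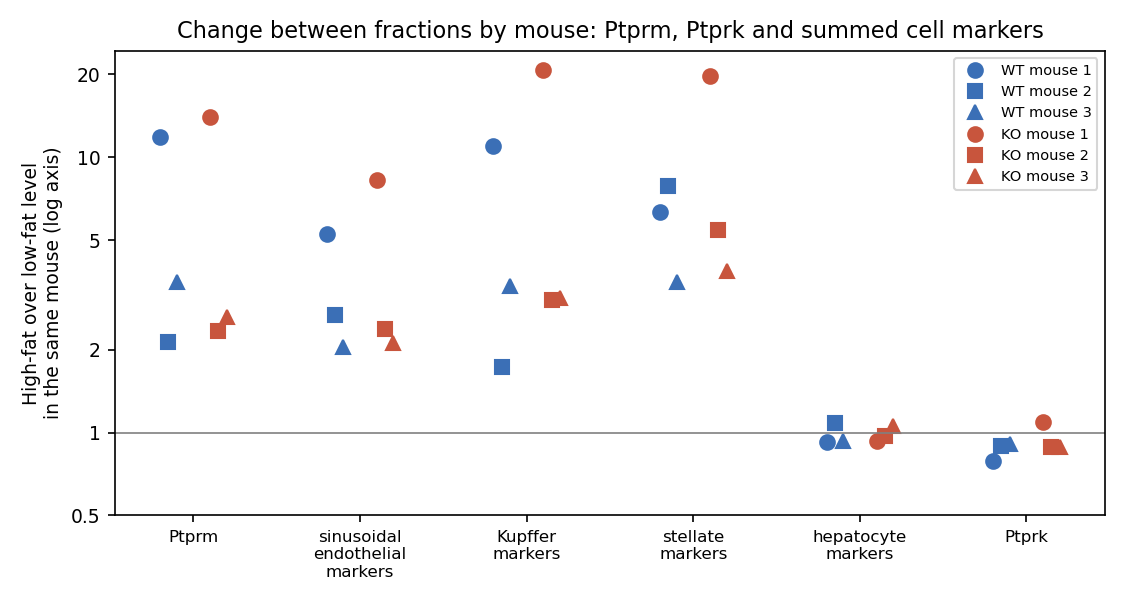
For each mouse, the ratio of its high-fat to its low-fat level (y axis, log scale) is shown for Ptprm, for summed markers of 4 cell types and for Ptprk (x axis). Colours mark the genotype and symbols the mouse; Ptprm ratios run from 2.13 to 14 and follow the endothelial and Kupffer cell markers in being highest in the mice numbered 1, while hepatocyte markers and Ptprk stay near 1.

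Ptprt was listed higher in high-fat than in low-fat hepatocytes in 5 of 6 mice, the exception being KO mouse 3, with 4 in low-fat and 2 in high-fat. Its values summed to 7 over the 6 low-fat and 41 over the 6 high-fat libraries. The two-sided exact permutation test within mice gave p = 0.0625. Without the filter on low values, the log2 fold change over both genotypes was 1.47 (95% interval 0.72 to 2.22, limma adjusted p = 0.0376). At so few reads this rests on differences of 2 to 10 units per mouse.

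Ptpru was not called between fractions. Its high-fat level was 14, 4 and 7 units above the low-fat level in WT mice 1 to 3 and 6, 0 and -11 units above it in KO mice 1 to 3. Over both genotypes the log2 fold change was 0.00 (95% interval -0.50 to 0.50, limma adjusted p = 0.998). The within-mouse spread was small against that between WT mice, where mouse 1 was highest and mouse 3 lowest in both fractions.

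Ptprk had a slightly lower mean in the high-fat fraction of both genotypes. In WT mice 1 to 3 its high-fat level was 78.8%, 89.4% and 90.6% of the low-fat level, and the fractions did not overlap. In KO mice it was 109%, 88.3% and 88.4%, and the fractions overlapped. The direction in KO mouse 1 depends on the scaling: 1117 and 1217 as deposited became 1170 and 1132 after rescaling. Over both genotypes the difference was -0.20 on the log2 scale with an SE of 0.0662 and was not called (limma adjusted p = 0.117). A fit with each mouse as a block called it at the same size (limma adjusted p = 0.0457), in a comparison that then called 11% of all genes. With the deposited scaling alone the difference was -0.146 and was not called. The exact permutation test within mice, two-sided, gave p = 0.03125 on rescaled values. In each genotype alone it was not called, at -0.27 in WT and -0.13 in KO (limma adjusted p = 0.278 and 0.867).

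The difference between fractions was then compared between genotypes. The interaction was 0.14 (95% interval -0.15 to 0.43) for Ptprk, -0.04 (95% interval -1.58 to 1.51) for Ptprm and -0.33 (95% interval -1.34 to 0.67) for Ptpru, on the log2 scale. limma called 0 of these 3, with 0 at an unadjusted p under 0.05, and 0 of all 16563 genes (0% called; 0.145% at an unadjusted p under 0.05). For Ptprm the interval is wide enough to hold a rise that differs between genotypes by more than 2-fold either way.

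The R2B genes were placed beside the other 17 receptor-type tyrosine phosphatases, a list of all remaining members of the receptor class. By level per kb of exon over the 12 libraries, Ptprk ranked 4 among these 21 genes, with 144 reads per 20 M per kb, behind Ptprf with 1350, Ptprj with 288 and Ptprd with 281. Ptprf, also called LAR, is a receptor phosphatase linked to insulin receptor signalling, and Ptprj, or DEP-1, acts on several receptor tyrosine kinases. Ptprm ranked 10 with 7.37, Ptpru 12 with 5.81 and Ptprt 15 with 0.317. In WT libraries alone the ranks were 4 for Ptprk (195), 9 for Ptprm, 11 for Ptpru and 15 for Ptprt, and in KO libraries alone they were 6 for Ptprk (92.7), 11, 12 and 15.

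Of the 17 other receptor types 10 were tested, and limma called 0 of them in any KO against WT comparison, with a median log2 fold change of 0.03 in low-fat and -0.02 in high-fat libraries against -0.00 and -0.01 over all genes. At an unadjusted p under 0.05 stood 1 in each fraction, against 1.73% of all genes in low-fat and 2.02% in high-fat libraries. It was Ptprj, with a log2 fold change of 0.24 and 0.22 (limma adjusted p = 1 in both). Its levels were 2183, 2357 and 2245 in WT low-fat and 2709, 2396 and 2870 in KO low-fat libraries, without overlap, as for 4.97% of genes. Averaged per mouse 2 stood under 0.05, against 2.19% of all genes, Ptprj at 0.23 and Ptprb at -0.56 (limma adjusted p = 0.999 for each).

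Between fractions, limma called 2 of the 10 as higher in the high-fat fraction over both genotypes, Ptprb and Ptprs, against 5.05% of all genes. Ptprb, the vascular endothelial phosphatase VE-PTP, rose from 836, 739 and 1094 to 4174, 2728 and 2082 reads per 20 M in WT and from 316, 785 and 757 to 2754, 1847 and 1583 in KO mice. Its rise of 1.70 on the log2 scale had an SE of 0.243 (limma adjusted p = 0.00326). Ptprs, a receptor for proteoglycans, rose by 0.73 with an SE of 0.17 (limma adjusted p = 0.0278). In KO libraries alone Ptprb was called (limma adjusted p = 0.0469), and with each mouse as a block it was not (0.0622). Ptprc, which encodes the leukocyte antigen CD45, had a log2 fold change of 1.26 that was not called (limma adjusted p = 0.335). It went from 39, 136 and 25 to 348, 106 and 80 in WT mice 1 to 3. In KO mice 1 to 3 it went from 38, 216 and 17 to 316, 93 and 62, so mouse 2 of each genotype fell. Ptprf and Ptprd, the former the most abundant of the class, stood at -0.23 and 0.06 (limma adjusted p = 0.176 and 0.879).

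**Figure D5:**
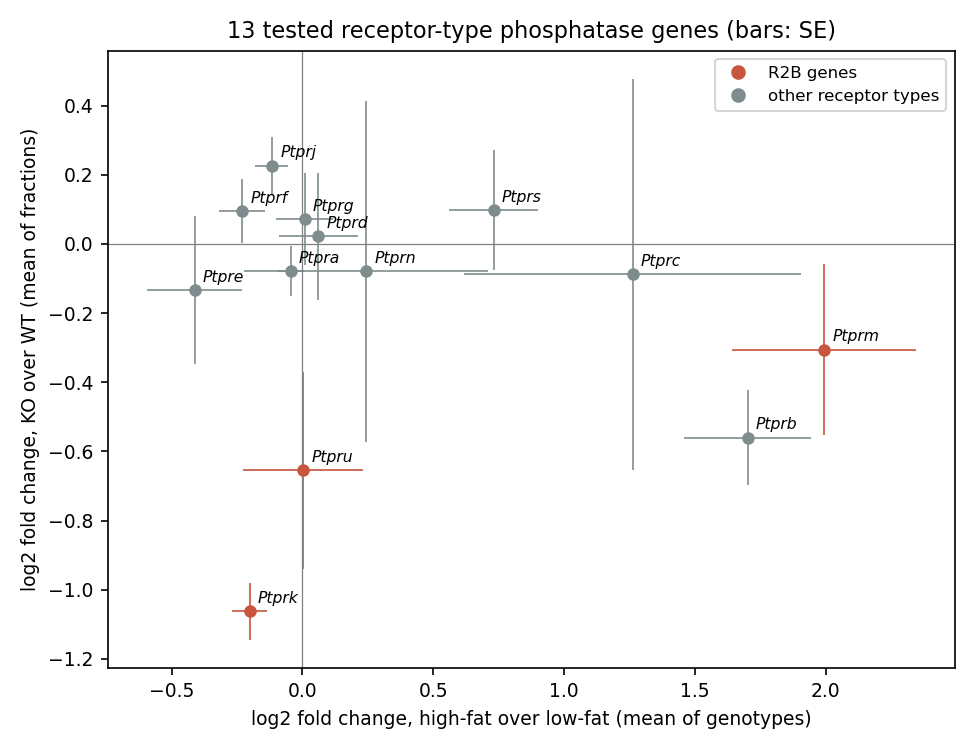
Each point is 1 of the 13 tested receptor-type phosphatase genes, by its log2 fold change of high-fat over low-fat libraries over both genotypes (x axis) and of KO over WT averaged per mouse (y axis); bars are standard errors and R2B genes are red. Ptprk lies apart at the bottom, at -1.06 on the y axis, and Ptprm and Ptprb lie to the right, at 1.99 and 1.70 on the x axis.

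A list of 16 junction partners and substrates of R2B receptors was measured in full. In KO against WT, limma called 0 of the 16 in each fraction and over mouse means, with 0 at an unadjusted p under 0.05 (2 in each with the replicate number as a block, which put 3.24%, 3.93% and 3.98% of all genes there), and the median log2 fold change was -0.01 in low-fat and -0.02 in high-fat libraries. The 3 most abundant were Egfr, the receptor of epidermal growth factor, Ctnnb1, which encodes beta-catenin, and the adhesion molecule gene Nectin1. Egfr had the largest KO difference of the list, -0.52 in low-fat and -0.61 in high-fat libraries (SE 0.328, limma adjusted p = 1 in both). Its levels were 14600, 19451 and 31474 in WT low-fat and 12453, 13370 and 18081 in KO low-fat libraries, and these ranges overlapped.

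Between fractions, 14 of the 16 had negative fold changes over both genotypes, as did 54.9% of all genes, with a median of -0.14 against -0.02 over all genes. limma called 1 as lower in the high-fat fraction, against 0.725% of all genes. It was Pkp4, a member of the p120-catenin family, at -0.21 with an SE of 0.0498 (limma adjusted p = 0.0281). With each mouse as a block, a fit that called 4.26% of all genes as lower, 5 were called as lower: Pkp4, Cdh1, Jup, Nectin3 and Stat3. Cdh1, the gene of E-cadherin, fell most in that fit, by 0.97 on the log2 scale (limma adjusted p = 0.00381, and 0.127 without the block). Its levels were 3692, 1396 and 1393 in WT low-fat and 1668, 740 and 833 in WT high-fat libraries.

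R2B receptors are cut by proprotein convertases and then by ADAM proteases and gamma-secretase, and their glycans are branched by the enzyme that Mgat5 encodes. All 12 genes listed for these steps were tested. limma called 0 of 12 in each KO against WT comparison, with 0 at an unadjusted p under 0.05. With the replicate number as a block 1 stood under 0.05 in high-fat libraries, against 3.93% of all genes, and 0 in the other KO against WT comparisons. The fold changes lay between -0.17 and 0.15 in low-fat and between -0.25 and 0.14 in high-fat libraries. Furin, Psen2 and Pcsk6 were the most abundant, and Furin stood at -0.22 between fractions over both genotypes (limma adjusted p = 0.0731). With each mouse as a block Furin and the gamma-secretase subunit gene Aph1a, at -0.26, were called as lower in the high-fat fraction (limma adjusted p = 0.0342 and 0.0407), against the same 4.26% of all genes.

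The genes most like each member were those with the highest Pearson correlation over the 12 libraries, among genes whose mean level was 100 or more. They are a description of libraries that share mice and cell make-up. For Ptprm they were Hip1, Tmsb4x, Axl, Cd163 and Siglec1, with r from 0.975 to 0.981. Siglec1, the gene of the macrophage receptor sialoadhesin, stood at 53, 88 and 34 in WT low-fat and at 740, 174 and 129 in WT high-fat libraries. Ptprm itself was higher in the high-fat fraction, so this rise also comes with the choice by correlation. For Ptprk they were Ddx3y, Arnt, Ovca2, Pik3c2g and Gm19619, with r from 0.858 to 0.91. Arnt, a partner of hypoxia-inducible factors, stood at 919 to 1088 in 6 KO and at 1120 to 1227 in 6 WT libraries. Ptprk itself was lower in all 6 KO libraries, so this separation comes with the way these genes were chosen. The share of all genes with such a separation was not counted. None of these 5 genes was called in KO against WT. For Ptpru they were Serpina4-ps1, Tank, Ipo13, Tmem110 and Ppfia1, with r from 0.892 to 0.911 among 10517 genes compared. Each of them was highest in WT mouse 1 in the high-fat fraction. Ptpru itself was highest there, so this shared peak comes with the way they were chosen.

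The genes next to Ptprk on chromosome 10 were looked up by position, after the levels of the members were known. Of the 5 protein-coding genes on each side in GENCODE M21, 4 were tested: L3mbtl3, Arhgap18 and Lama2 on one side and Themis, the nearest gene on the other. limma called 0 of the 4 in KO against WT. Themis, known from T-cell development, had the largest difference. It stood at 98, 145 and 210 reads per 20 M in WT high-fat and at 42, 74 and 40 in KO high-fat libraries. These groups did not overlap, as was the case for 4.51% of all genes. In low-fat libraries it stood at 30, 51 and 113 in WT and at 17, 29 and 38 in KO mice, with overlap. Its log2 fold change in the high-fat fraction was -1.48 (SE 0.476, unadjusted p = 0.00943, limma adjusted p = 1). Of all genes, 2.02% stood at an unadjusted p under 0.05 there. Ptprm lies on chromosome 17, Ptprt on chromosome 2 and Ptpru on chromosome 4.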

How the data were processed

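Per the labels' protocols, hepatocytes were sorted into fractions by their lipid and libraries were made from polyA RNA. The submitters' processing notes name the build mm9; aligner, counter, annotation and strandedness are not given in the sources used here, and no coordinates are printed. The authors deposited a score, that is reads scaled to 20 M per library and rounded up, as the column sums show. Of the 52636 gene identifiers 99.56% are in GENCODE M21 (GRCm38), which gave exon lengths, gene overlaps and coding sequences. Depth was estimated from the pattern that rounding leaves in low values (largest error 0.14% in 6 simulated libraries).

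Genes with at least 10 in at least 3 libraries (16563) were rescaled by the trimmed mean of M values (factors 0.937 to 1.08) and fitted as log2(value + 2) with limma 3.58.1 in R 4.3.3, with 1 mean per group over 12 libraries and an intensity trend; the averaged KO against WT comparison used 6 mouse means. Adjusted p-values are two-sided, by Benjamini-Hochberg over all genes tested, and a gene was called under 0.05. The 28 exact permutation tests of members (SciPy 1.17.1) are not adjusted. Simulated data, in which 200 genes were changed per comparison, served to test the fit for independent libraries only. They held no likeness between the libraries of a mouse, so they do not bear on the choice of a block. Low-fat and high-fat libraries of the same number come from the same mouse per the labels; their deviations from group means had a mean r of 0.516 (WT) and 0.165 (KO). WT and KO low-fat libraries of the same number also deviated together (r of 0.251, 0.396 and 0.296). The labels do not give this pairing, and it was not tested. Alternatives were a replicate block (the mouse for comparisons of fractions and the interaction, the replicate number for KO against WT), other pseudocounts, no filter, other scalings, only the libraries compared, and leaving out libraries. Replicates are different mice (chi-square per gene 20.3 to 51.3 within groups).

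The members and gene lists were chosen with earlier results of these data known. Named are the members, the 3 most abundant and any called gene of each list, and the 5 genes most like each tested member. Other named genes were chosen after their values were seen.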

Additional observations from a re-analysis of the deposited data

How the results depend on the processing

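Over 21 fold changes of Ptprk, Ptprm and Ptpru and 351 values under alternatives, 310 kept direction and call and 22 changed sign; the cause was not tested except where the setting leaves out libraries. The number of R2B genes called in KO against WT, 1 in each comparison, fell to 0 in the high-fat fraction with only the libraries compared, to 0 over mouse means with the replicate number as a replicate block (limma adjusted p = 0.109), and to 0 in all 3 without both mice numbered 1 (replicate 1 of each genotype), a choice made after seeing the data (adjusted p = 0.0528, 0.0568 and 0.439). Leaving out 1 library gave 1 to 1 calls in the low-fat and 0 to 1 in the high-fat fraction, and leaving out 1 mouse gave 0 to 0 over mouse means. Same-numbered WT and KO mice are different animals, and the labels do not pair them. In the high-fat fraction their deviations correlated with r of 0.49, -0.171 and 0.381. The mean was 0.233. Between mice of different numbers it was -0.112, which is no separate comparison. Deviations within a group sum to 0, so the mean for the same number nearly fixes the mean for different numbers.

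Between fractions, the same-mouse correlation, chosen after seeing the data, gave 1 call in WT and 1 in KO (Ptprm, limma adjusted p = 0.0433 and 0.0404) against 0, and 2 over both genotypes (Ptprk and Ptprm) against 1. The replicate block (the mouse) without both mice numbered 1 also gave 1 call in WT and 1 in KO (Ptprm at 1.35 and 1.24). Over both genotypes the replicate block, here the mouse, gave 2 calls (Ptprk and Ptprm) and no filter gave 2 (Ptprm and Ptprt). The block changed no other call of a member. The log2 fold change of Ptprm there ranged from 1.3 to 2.15 over all alternatives and was called in each.

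Values near 0 changed sign. For Ptpru over both genotypes they were -0.000865 with a pseudocount of 0.5, -0.029 with no filter and -0.0623 without both mice numbered 1, with and without the replicate block, and for the interaction of Ptprm 0.00237 with no filter. Leaving out 1 library moved Ptpru from -0.142 to 0.143 over both genotypes, from -0.118 to 0.452 within WT, from -0.272 to 0.0466 within KO, and Ptprm from -0.782 to 0.159 in KO against WT of the high-fat fraction and from -0.494 to 0.447 in the interaction. Depth limits Ptprt, which lay at or near 3 reads in low-fat libraries.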
